A study of Mus musculus with 6 samples.

Results

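Cytosolic ribosomal protein genes were examined in leukocytes of the mouse brain before and shortly after a transient stroke. The members were all genes whose symbol has the form of a large-subunit (Rpl) or small-subunit (Rps) protein, plus Rpsa, Rplp0, Rplp1 and Rplp2, with 100 or more raw UMIs (unique molecular identifiers, each standing for 1 captured transcript) over all 6 libraries. Kinases and genes named as pseudogenes were left out. The rule gave 82 genes of the 31053 in the series, 50 of the large and 32 of the small subunit.

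The mice were C57BL/6 and carried either Cd300a-fl/fl alone (called fl/fl here) or Cd300a-fl/fl with Lyz2-cre (called Lyz2-cre), a Cre recombinase driven by the lysozyme gene of myeloid cells. All groups share the floxed Cd300a alleles. Each genotype was sampled naive and at 1 h and 3 h of reperfusion, after a filament had closed the right middle cerebral artery for 60 min. The sample titles call the first group naive and the series text gives it as 0 h, and the titles are followed. Each of the 6 libraries was made from CD45-positive cells of 3 pooled brains, so each combination of genotype and time is 1 library, and the age of the mice is not given in the sources used here.

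A ribosome is built from ribosomal RNAs and a single copy of nearly every ribosomal protein, and their messages are among the most abundant in most cells. Most of these messages begin with a C and a run of pyrimidines, the 5′ terminal oligopyrimidine (TOP) motif, through which the kinase mTOR controls their translation. Free ribosomal proteins also act as signals: Rpl5, Rpl11 and Rpl23 bind Mdm2 and so stabilise p53. In the brain, resting microglia have small cell bodies and fine processes, and they enlarge when activated.

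The 30 bases around the annotated start (15 before and 15 after it) are shown for 7 members on which the results below turn, from RefSeq on build GRCm38.p6. The capitals mark a pyrimidine run of at least 6 bases, counted from its first C no more than 10 bases before or after the start. The first 3 genes rose between 1 h and 3 h in microglia-like cells, the next 2 fell in that interval, Rps24 was among the largest rises at 1 h, and Rpl22l1 was the only member that fell at 1 h.
Rps27, chr3:90213634-90213663, minus strand: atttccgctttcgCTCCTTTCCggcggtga
Rps18, chr17:33955651-33955680, minus strand: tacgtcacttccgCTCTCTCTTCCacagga
Rps23, chr13:90923107-90923136, plus strand: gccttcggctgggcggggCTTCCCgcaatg
Rpl6, chr5:121204486-121204515, plus strand: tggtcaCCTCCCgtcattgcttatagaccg
Rpl7a, chr2:26910792-26910821, plus strand: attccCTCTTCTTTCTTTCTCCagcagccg
Rps24, chr14:24490663-24490692, plus strand: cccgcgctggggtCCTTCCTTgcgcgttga
Rpl22l1, chr3:28805493-28805522, plus strand: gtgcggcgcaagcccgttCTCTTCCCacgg
Among these 7, genes that rose and genes that fell both hold such a run. Other members named below do not, such as Rpl37a, which rose (run of 3 bases), and Rps4x, which fell (4 bases). Rps24 also has another annotated start, where the run is 2 bases long and so below the bound of 6. A match says nothing of which start the cells used. The marked run was 9 bases long in Rps27, 11 in Rps18, 17 in Rpl7a and 8 in Rpl22l1. In Rpl7a the letters just before the capitals are pyrimidines too, so its full run is longer and begins more than 10 bases before the start. Rps29, Rpl29, Rpl21 and Rps20 are named only.

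The promoter table held 62 of the 82 members, with 74 promoters. A pyrimidine run of this kind was found in 47.3% of the member promoters and in 19.4% of all 32851 promoters of the table. The GABP motif CCGGAA was found in 48.6% of the member promoters and 14.9% of all, the YY1 motif AAGATGG in 16.2% and 6.34%, and the SP1 motif GGGCGG in 59.5% and 35.7%. These 3 motifs were searched on both strands from 250 bases before to 50 bases after the start, they may overlap each other, and a match is a description of the letters alone.

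Total counts per library ran from 35479437 to 48478866 UMIs, and 47103 cells of 51005 barcodes were used. Pairs of libraries shared between 12 and 30 barcode sequences. Cells were named from marker genes, with the ending -like. Of the neutrophil-like, monocyte-like and microglia-like cells the last were by far the most, with 4744 to 7323 cells per library. In these cells all 10 microglia markers had UMIs, at a summed 17986 to 36004 CPM (counts per 1000000, where a class's total in 1 library is the denominator). Of the 12 microglia-like clusters, cluster 4, led by Hspb1 and Hspa1a, and cluster 13, led by Gdf15 and Rcan1, had none of these markers among their 10 leading genes. Cells left unnamed, which include progenitors and small mixed clusters, numbered 227 in the Lyz2-cre 1 h library and 31 to 80 in the others. UMIs of Cd300a, the floxed gene, stood at 175, 256 and 142 CPM in fl/fl neutrophil-like cells at naive, 1 h and 3 h, and at 16.2, 10.0 and 16.5 CPM in Lyz2-cre. In microglia-like cells Cd300a was at 172, 212 and 206 CPM in fl/fl versus 138, 172 and 163 CPM in Lyz2-cre. The method reads the 3′ end of transcripts, so UMIs of Cd300a do not show which exons were present.

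The share of UMIs that came from the 82 genes differed widely between cell classes. In naive fl/fl brain it was lowest in neutrophil-like cells at 2.95% (95% exact interval 2.91% to 2.99%) and microglia-like cells at 5.68% (5.67% to 5.69%). Border-associated macrophage-like cells stood at 11.96% and monocyte-like cells at 15.7%. B cell-like cells stood at 20.6%, natural killer cell-like cells at 21.0%, conventional dendritic cell-like cells at 22.0% and T cell-like cells at 27.4%. The neutrophil-like share was lowest and the microglia-like share next in all 6 libraries. Intervals cover counting error only, and the classes differ in depth, from a mean of 2814 UMIs per cell (neutrophil-like, Lyz2-cre 3 h) to 12187 (conventional dendritic cell-like, fl/fl 1 h).

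In microglia-like cells the share was higher at each later time in both genotypes. It was 5.68%, 6.97% and 8.18% in fl/fl at naive, 1 h and 3 h, and 5.70%, 7.43% and 7.86% in Lyz2-cre. Both 1 h libraries were above both naive libraries, and both 3 h libraries were above both 1 h libraries. Between naive and 3 h the share gained 2.499 percentage points in fl/fl versus 2.16 in Lyz2-cre, which is 1.44 and 1.38 times the naive share. The median over single cells moved alike, from 5.32% to 7.44% in fl/fl and from 5.41% to 7.16% in Lyz2-cre.

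Counted per cell, the members of microglia-like cells differed less between times than the share did. Member UMIs per cell were 286, 308 and 358 in fl/fl versus 303, 305 and 315 in Lyz2-cre. UMIs of all other genes per cell were lower at each later time, at 4746, 4102 and 4016 in fl/fl versus 5016, 3805 and 3696 in Lyz2-cre. With 1 library per group these values have no test. UMIs per cell also depend on how deeply a library was sequenced, which was not tested, and a larger share through more member transcripts cannot be told apart here from one through fewer other transcripts.

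The lymphocyte classes, which have few cells, also stood higher at 3 h than in naive brain. The B cell-like share went from 20.6% to 26.2% and 29.6% in fl/fl (61, 144 and 122 cells) and from 21.8% to 27.4% and 30.5% in Lyz2-cre (102, 304 and 145 cells). The median over B cell-like cells moved less, from 25.8% to 29.8% in fl/fl and from 26.0% to 30.8% in Lyz2-cre between naive and 3 h. T cell-like cells went from 27.4% to 31.2% and 31.4% in fl/fl and from 27.0% to 27.7% and 31.4% in Lyz2-cre. Natural killer cell-like cells went from 21.0% to 25.8% and from 21.1% to 23.2% between naive and 3 h. Border-associated macrophage-like shares were 11.96%, 14.9% and 13.1% in fl/fl versus 13.02%, 12.1% and 14.2% in Lyz2-cre, so that 3 h stood above naive in both genotypes while 1 h did so in fl/fl alone.

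**Figure D1:**
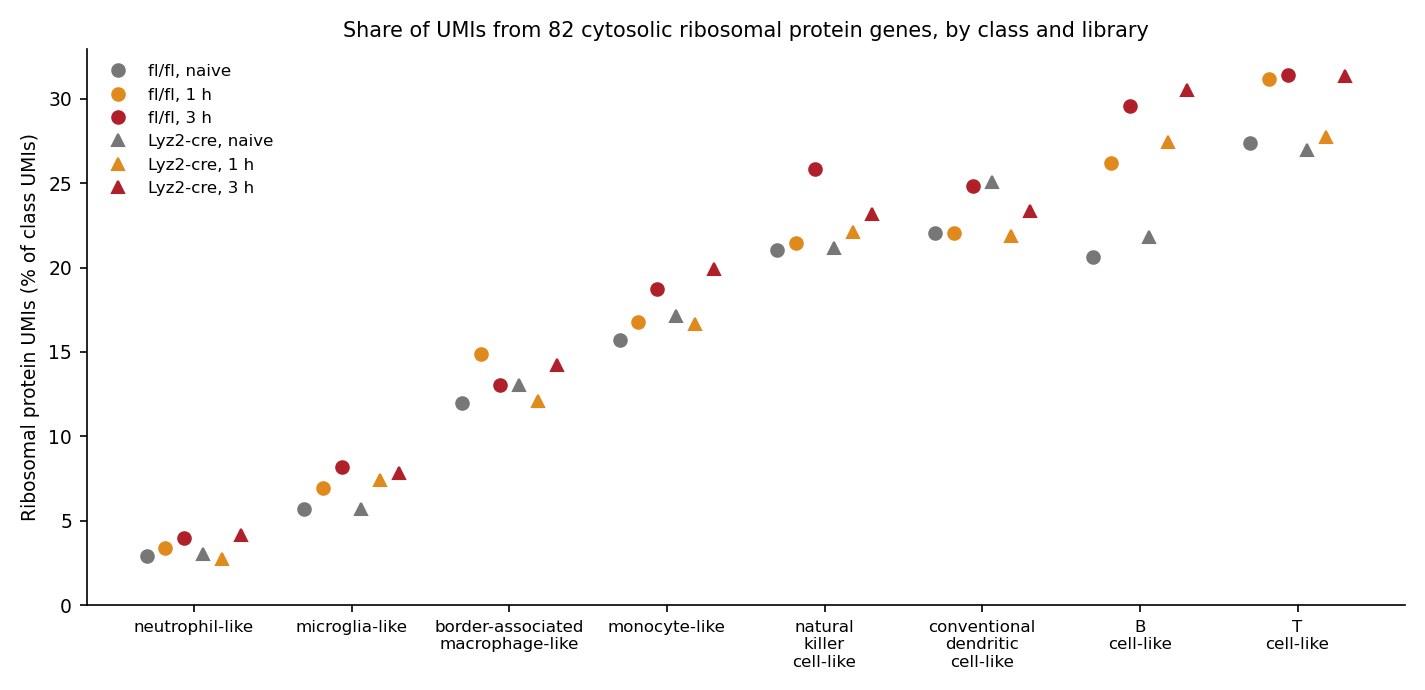
Share of all UMIs of a class (y axis, percent) that came from the 82 cytosolic ribosomal protein genes, for 8 classes (x axis) and 6 libraries; circles are fl/fl, triangles Lyz2-cre, grey naive, orange 1 h and red 3 h, with exact 95% intervals for counting error that are smaller than most symbols. In microglia-like cells the naive libraries sit at 5.68% and 5.70% and the 3 h libraries at 8.18% and 7.86%.

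In microglia-like cells most members rose by 1 h, in both subunits, while 22 had no call. Of the 81 members tested, 58 were higher at 1 h than in naive brain and 1 was lower, by edgeR's quasi-likelihood test at an adjusted p under 0.05. Among all 12808 genes tested in that comparison, 14.0% were called higher and 12.6% lower. The median log2 fold change of the members was 0.46, against -0.01 over all genes tested. Large-subunit genes gave 36 rises among 49 tested (median 0.47) and small-subunit genes 22 among 32 (median 0.46).

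The largest rises at 1 h were those of Rps20, Rps24, Rpl21, Rpl6 and Rpl18, all structural proteins of the ribosome. Rps20 stood at 751 CPM (fl/fl) and 716 CPM (Lyz2-cre) in naive brain, 1069 and 1182 CPM at 1 h, then 1074 and 1049.9 CPM at 3 h. Its log2 fold change from naive to 1 h was 0.73 (SE 0.10, adjusted p = 0.00121). Rps24 went from 1334 and 1265 CPM to 1898 and 2068 CPM at 1 h, then 1926 and 1792 CPM at 3 h, with a 1 h log2 fold change of 0.72 (SE 0.11, adjusted p = 0.00165). For both genes the 1 h libraries lay above the naive libraries with no overlap. Rpl21 rose by 0.70 at 1 h on the log2 scale, Rpl6 by 0.68 and Rpl18 by 0.67, with adjusted p of 0.00143, 0.00128 and 0.0017. The same 5 calls were lost without either naive library.

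The 1 h calls depended on having both naive libraries. The share of all genes called with a library left out is not given here. A loss of calls among members therefore cannot be told apart from a loss over all genes. Without the fl/fl naive library 0 members were called, without the Lyz2-cre naive library 1, and without the Lyz2-cre 1 h library 32, with median log2 fold changes of 0.47, 0.46 and 0.37. With library totals as the only scaling 54 rose and 2 fell, the median of all genes moved to -0.12, and 30.9% of all calls were rises in place of 52.5%.

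By 3 h the rise in microglia-like cells covered almost the whole set. Of 81 members 75 were higher than in naive brain and 0 lower, with a median log2 fold change of 0.53 against -0.02 over all genes. In that comparison 24.4% of all genes were called higher and 23.1% lower. The called members ranged from a log2 fold change of 0.27 (Rpl21) to 1.12 (Rps29). Without the fl/fl naive library 26 members were called and without the Lyz2-cre naive library 39, all higher.

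The 5 largest rises at 3 h were those of Rps29, Rps23, Rps27, Rps18 and Rpl37a. Rps29, a small zinc-binding protein of the small subunit, stood at 1173 and 1620.1 CPM in naive fl/fl and Lyz2-cre, at 1307 and 1491 CPM at 1 h, and at 2657 and 3016 CPM at 3 h. Its log2 fold change from naive to 3 h was 1.12 (SE 0.10, adjusted p = 5.39e-05). Rps23, which lies at the decoding site, stood at 754 and 768 CPM in naive brain, 752 and 794 CPM at 1 h, then 1535 and 1419 CPM at 3 h (log2 fold change 1.04, SE 0.10, adjusted p = 5.78e-05). Rps27 went from 513 and 680 CPM to 1112 and 1173 CPM between naive and 3 h (1.03), Rps18 from 524 and 501 CPM to 994 and 945 CPM (1.00), and Rpl37a from 507 and 662 CPM to 1048 and 1101 CPM (0.97). In each of the 5 genes both 3 h libraries were above every naive and 1 h library. None of the 5 passed the test at 1 h, with log2 fold changes of 0.12 (Rps29), 0.13 (Rps23), -0.0015 (Rps27), -0.0005 (Rps18) and 0.15 (Rpl37a).

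**Figure D2:**
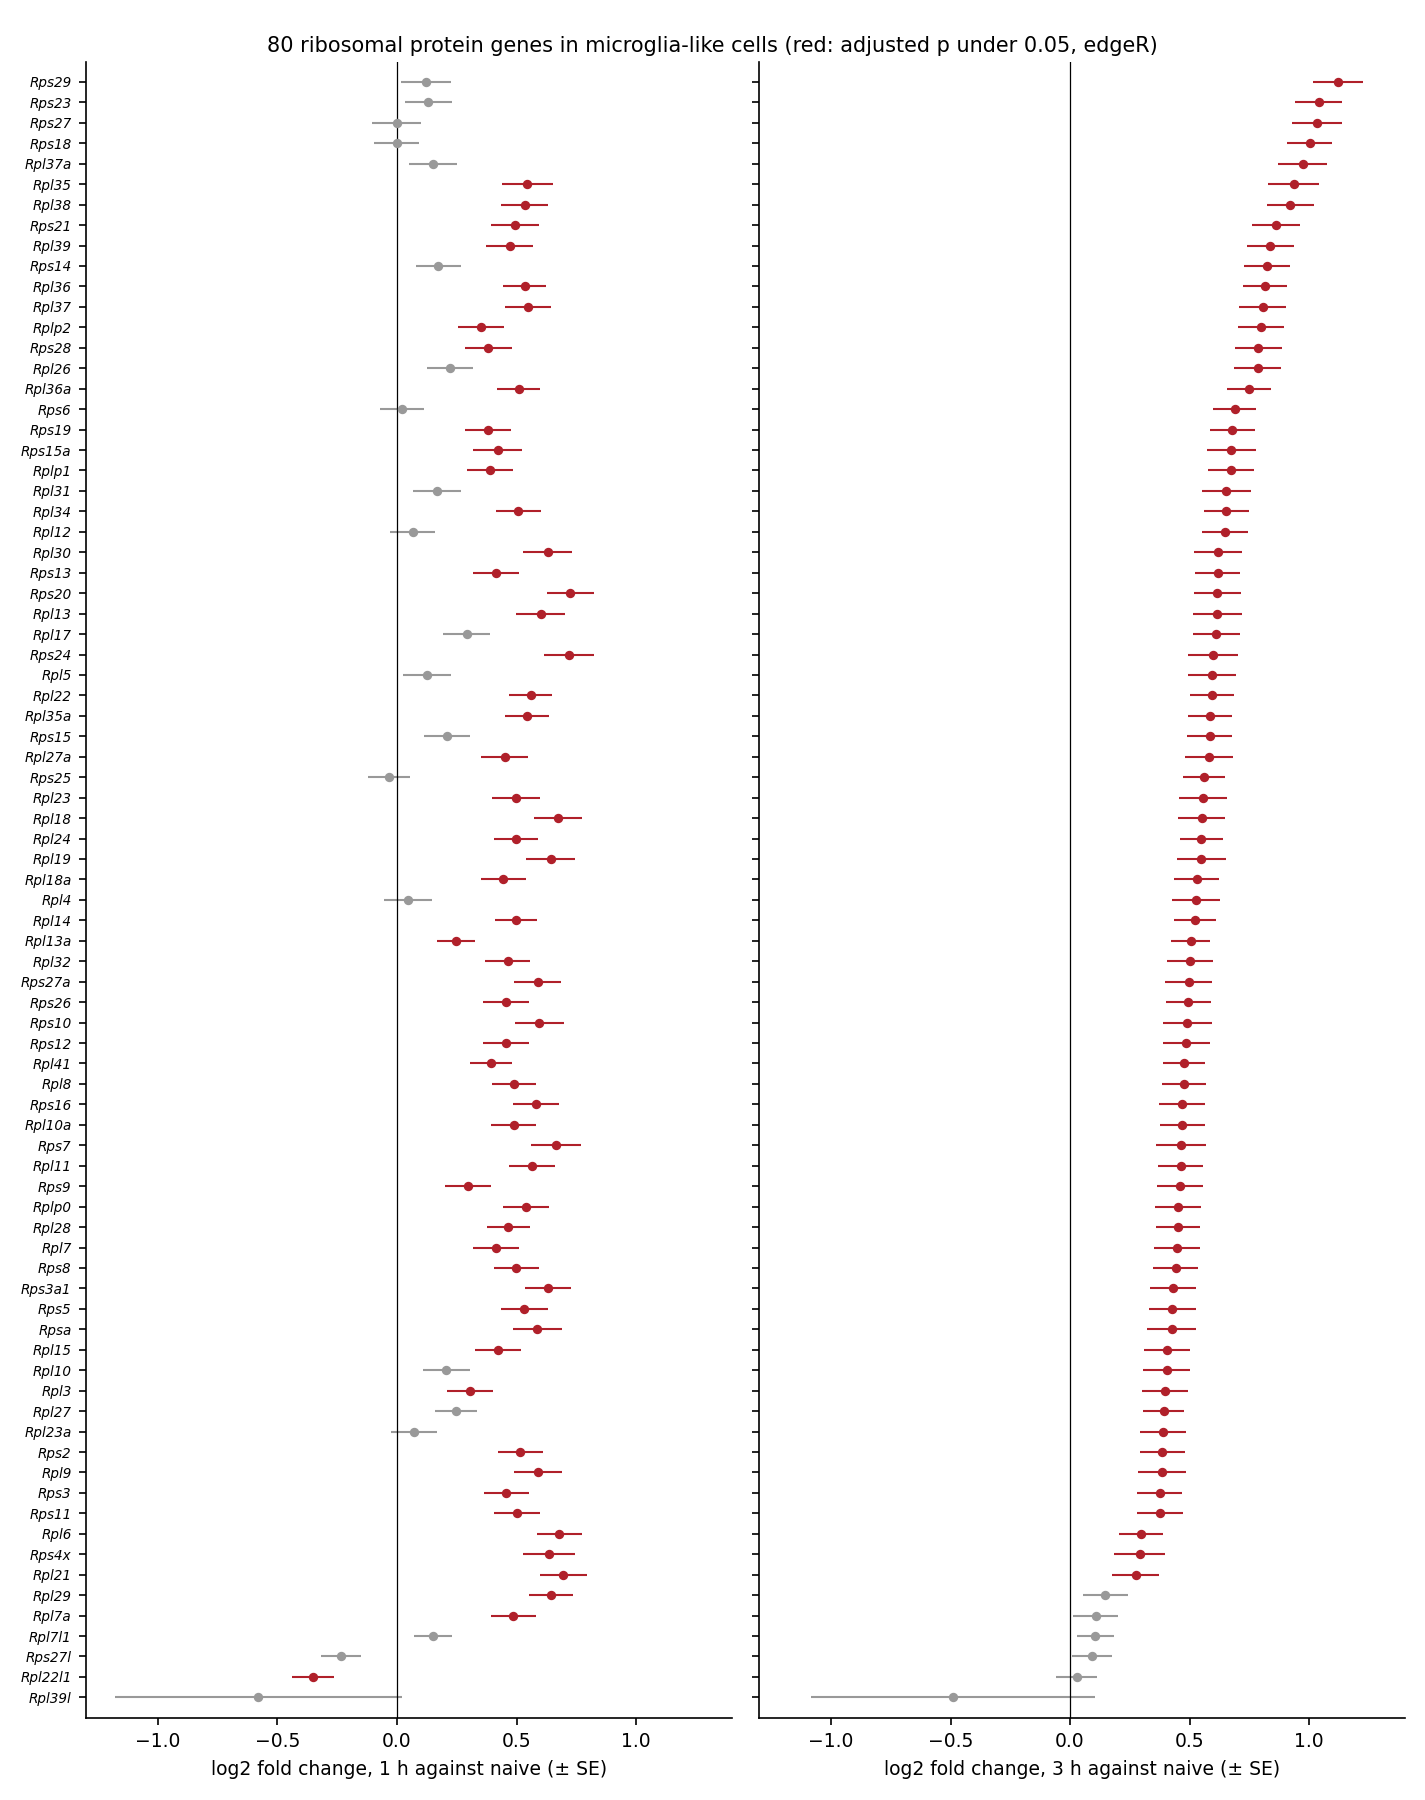
Log2 fold change of 80 members in microglia-like cells at 1 h (left) and 3 h (right) against naive, with bars of 1 SE and red for an adjusted p under 0.05 (edgeR). Genes are ordered by the 3 h value, from Rps29 at 1.12 to Rpl39l at -0.49; 59 points are red at 1 h and 74 at 3 h.

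The 6 tested members without a call at 3 h were 4 paralogs and a pair of standard proteins. Paralogs are close copies of a ribosomal protein, several of them made in few tissues. Rpl22l1, which can replace Rpl22 in the ribosome, stood at 194 and 185 CPM in naive brain, 132 and 144 CPM at 1 h, then 183 and 181 CPM at 3 h. It fell at 1 h by 0.35 on the log2 scale (SE 0.09, adjusted p = 0.0177), a call that was lost without the fl/fl naive, the Lyz2-cre naive or the fl/fl 1 h library. At 3 h its log2 fold change from naive was 0.03 (adjusted p = 0.818) and from 1 h 0.38 (adjusted p = 0.0065). Its parent Rpl22 went from 370 and 395 CPM to 503 and 543 CPM at 1 h, then 553 and 534 CPM at 3 h, with log2 fold changes of 0.56 and 0.59 (adjusted p = 0.00295 and 0.000803).

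Rps27l, a p53-induced copy of Rps27 that binds Mdm2, stood at 92.9 and 104 CPM in naive brain, 79.8 and 75.8 CPM at 1 h, then 99.6 and 98.7 CPM at 3 h. Its log2 fold change at 3 h against naive was 0.09 (adjusted p = 0.396), where that of Rps27 was 1.03. Against 1 h Rps27l rose by 0.33 (adjusted p = 0.0106). Rpl7l1, a nucleolar factor in assembly of the large subunit, lay between 82.6 and 90.9 CPM in all 6 libraries (0.11, adjusted p = 0.291). Rpl39l, known from the testis, lay between 1.18 and 4.12 CPM, and its log2 fold change was -0.49 (SE 0.59, adjusted p = 0.542). The parents of these 4 paralogs all rose at 3 h, with log2 fold changes of 0.59 (Rpl22), 1.03 (Rps27), 0.45 (Rpl7) and 0.84 (Rpl39). The difference between paralogs and parents was not tested.

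Rpl3l, the copy of Rpl3 known from muscle, was too rare to test in microglia-like cells, with 4 UMIs over all 6 libraries. Monocyte-like cells held 122 of its UMIs and neutrophil-like cells 101, at mean levels of 8.25 and 7.15 CPM. In T cell-like, natural killer cell-like and border-associated macrophage-like cells it had 0 UMIs, where a count of 0 allows up to 3. Rpl39l had 422 UMIs in microglia-like cells, 17 in T cell-like, 7 in natural killer cell-like, 5 in monocyte-like cells and 2 among those called neutrophil-like. Its mean level was 2.44 CPM in microglia-like, 2.57 CPM in natural killer cell-like and 2.16 CPM in T cell-like cells, against 0.416 CPM (monocyte-like) and 0.302 CPM (neutrophil-like). In monocyte-like cells Rpl3l stood at 6.76, 9.39 and 4.46 CPM in fl/fl versus 19.5, 5.19 and 4.20 CPM in Lyz2-cre, and no contrast passed the test. Neither paralog overlaps an annotated gene on its strand, and neither has a named pseudogene.

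The other 2 members without a call were Rpl29 and Rpl7a, both of the large subunit. Rpl29 stood at 544 and 514 CPM in naive brain, 747 and 787 CPM at 1 h, then 568 and 539 CPM at 3 h, so that its 1 h libraries were the highest of the 6. It rose at 1 h (0.64, SE 0.09, adjusted p = 0.00158) and fell between 1 h and 3 h (-0.50, SE 0.09, adjusted p = 0.00217). Rpl7a stood at 564 and 518 CPM in naive brain, 689 and 715 CPM at 1 h, then 568 and 532 CPM at 3 h.

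Between 1 h and 3 h the microglia-like members moved apart instead of together. In this interval 29 rose, 5 fell and 47 had no call, with a median log2 fold change of 0.09, and 25.3% of all genes were called higher and 22.1% lower. The 4 largest rises were those of Rps27 (1.03, SE 0.10, adjusted p = 0.000104), Rps18 (1.00), Rps29 (1.00) and Rps23 (0.91), all of the small subunit. The 5 that fell were Rpl29, Rpl21, Rpl6, Rpl7a and Rps4x. Rpl21 went from 1679 and 1795 CPM to 1342 and 1299 CPM (-0.42, adjusted p = 0.00656), and Rpl6 from 981 and 1064 CPM to 805 and 791 CPM (-0.38, adjusted p = 0.00851). Rpl7a fell by 0.38 and Rps4x, the X-linked form of the protein, by 0.34, with adjusted p of 0.00874 and 0.0246. Both 3 h libraries lay below both 1 h libraries in these genes. Without the Lyz2-cre 1 h library the calls of Rpl21, Rpl6, Rpl7a and Rps4x were lost, and that of Rps4x also without the Lyz2-cre 3 h library or either naive library. This comparison uses the same 1 h libraries as the one against naive, so the 2 are not independent.

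**Figure D3:**
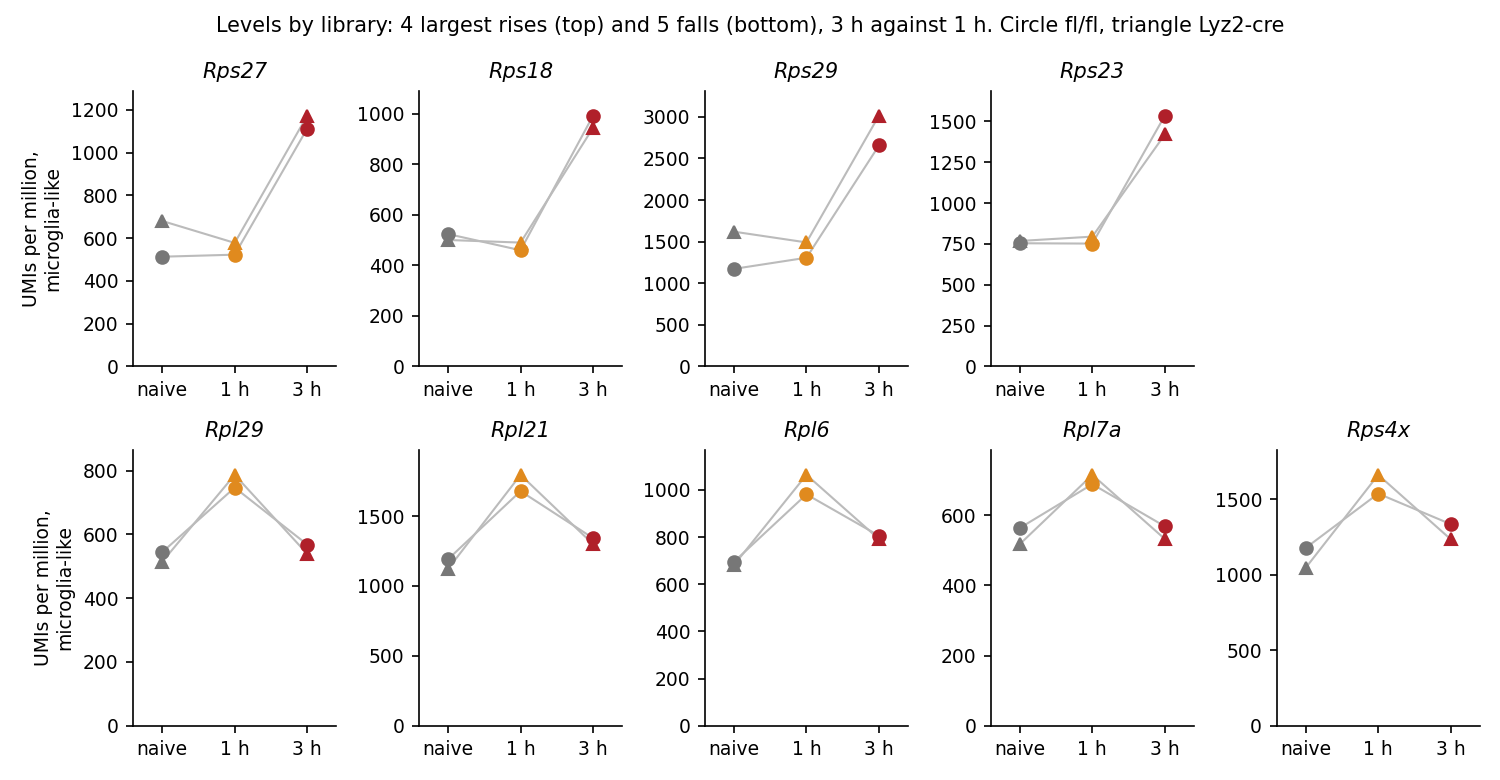
Level in microglia-like cells (y axis, CPM) at naive, 1 h and 3 h (x axis) of the 4 members that rose most (top row) and the 5 that fell (bottom row) between 1 h and 3 h; circles are fl/fl, triangles Lyz2-cre, and lines join libraries of a genotype. Rps27 goes from 522 and 578 at 1 h to 1112 and 1173 at 3 h, and Rpl29 from 747 and 787 to 568 and 539.

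The make-up of the set differed between 1 h and 3 h in the other classes too. Each member was expressed as its share of all ribosomal protein UMIs in a class and library, and the ratio of 3 h to 1 h was taken in each of 8 classes and 2 genotypes, 16 pairs of libraries in all. Of 80 members with at least 20 UMIs in every class, 13 were higher at 3 h in all 16 pairs and 25 were lower in all 16. The shares add up to a fixed total, so a lower share need not be a lower level. In monocyte-like cells 75 of 81 tested members had a log2 fold change above 0 from 1 h to 3 h, and 6 below. Across these 80 genes, the log2 ratios of any 2 classes in fl/fl had a Pearson r between 0.55 and 0.94 (28 pairs of classes, median 0.85), and in Lyz2-cre between 0.63 and 0.97 (median 0.89). Within a class, fl/fl and Lyz2-cre had an r between 0.74 and 0.99. All classes of a library were captured and sequenced together, so these pairs share their libraries, and the time after reperfusion cannot be told apart from a property of the 3 h or 1 h libraries.

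The 13 genes higher in all pairs included 8 of the small subunit, among them Rps27, Rps29, Rps18, Rps23, Rps6 and Rps14. The others were Rpl37a, Rpl26, Rpl36, Rpl39 and Rplp2 of the large subunit. Among the 25 genes lower in all pairs 13 were of the small subunit, and among the 42 of either direction 11. Rps27 was between 0.61 and 1.62 higher on the log2 scale, with a median of 0.98, Rps29 had a median of 0.94 and Rps18 of 0.85. In T cell-like cells, for example, Rps27 made up 1.14%, 0.967% and 1.78% of ribosomal protein UMIs at naive, 1 h and 3 h in fl/fl versus 1.48%, 0.902% and 1.95% in Lyz2-cre. Rps18 made up 0.923%, 0.660% and 1.21% in fl/fl microglia-like cells and 0.878%, 0.660% and 1.203% in Lyz2-cre. The 1 h libraries were the lowest of each genotype in both examples. Against naive, 9 of the 13 genes had a lower share at 1 h in all 16 pairs and 18 of the 25 described next a higher one. Of the 42 genes of either direction 8 had a lower share at 1 h in all pairs and 2 a higher one. These comparisons share the 1 h libraries.

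The 25 genes lower in all pairs were led by Rpl29 (median -0.62), Rpl6 (-0.51), Rpl7a (-0.50), Rpl21 (-0.47) and Rps4x (-0.45), and held Rpsa, Rps2, Rps3a1 and Rps7 among others. Rpl29 made up 0.957%, 1.07% and 0.694% in fl/fl microglia-like cells and 0.792%, 0.952% and 0.664% in fl/fl T cell-like cells. The genes higher in all pairs had a median coding length of 345 bases and those lower a median of 588 bases. Named pseudogenes existed for 9 of the 13 and 18 of the 25, beside 33 of the 42 of either direction and 60 of all 82 members.

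Transcript length was set beside the fold changes, first in microglia-like cells. Between 1 h and 3 h the 31 members with a transcript under 600 bases had a median log2 fold change of 0.33 and the longer members -0.01. For genes outside the set the medians were 0.03 for 228 short and 0.02 for the longer genes. The difference was not tested. Against naive at 3 h the medians were 0.65 and 0.47 for short and long members. At 1 h they were 0.38 and 0.49. Short and longer genes outside the set had 0.10 and -0.03 at 3 h against naive, and 0.12 and -0.01 at 1 h. In monocyte-like cells at 3 h against naive, short and longer members had medians of 0.51 and 0.41. Genes outside the set had 0.42 for 168 short and -0.03 for the longer genes there. In neutrophil-like cells members had 0.64 and 0.50 and other genes 0.009 and -0.07. None of these differences was tested.

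The naive libraries also differed from each other in some of these genes. In naive brain Rps29 was at 1173 CPM in fl/fl versus 1620.1 CPM in Lyz2-cre microglia-like cells, at 2935 and 3938 CPM in T cell-like cells, and at 2424 and 3517 CPM in B cell-like cells. In all 3 classes the naive Lyz2-cre library was higher, and in all 3 both 3 h libraries were higher still.

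**Figure D4:**
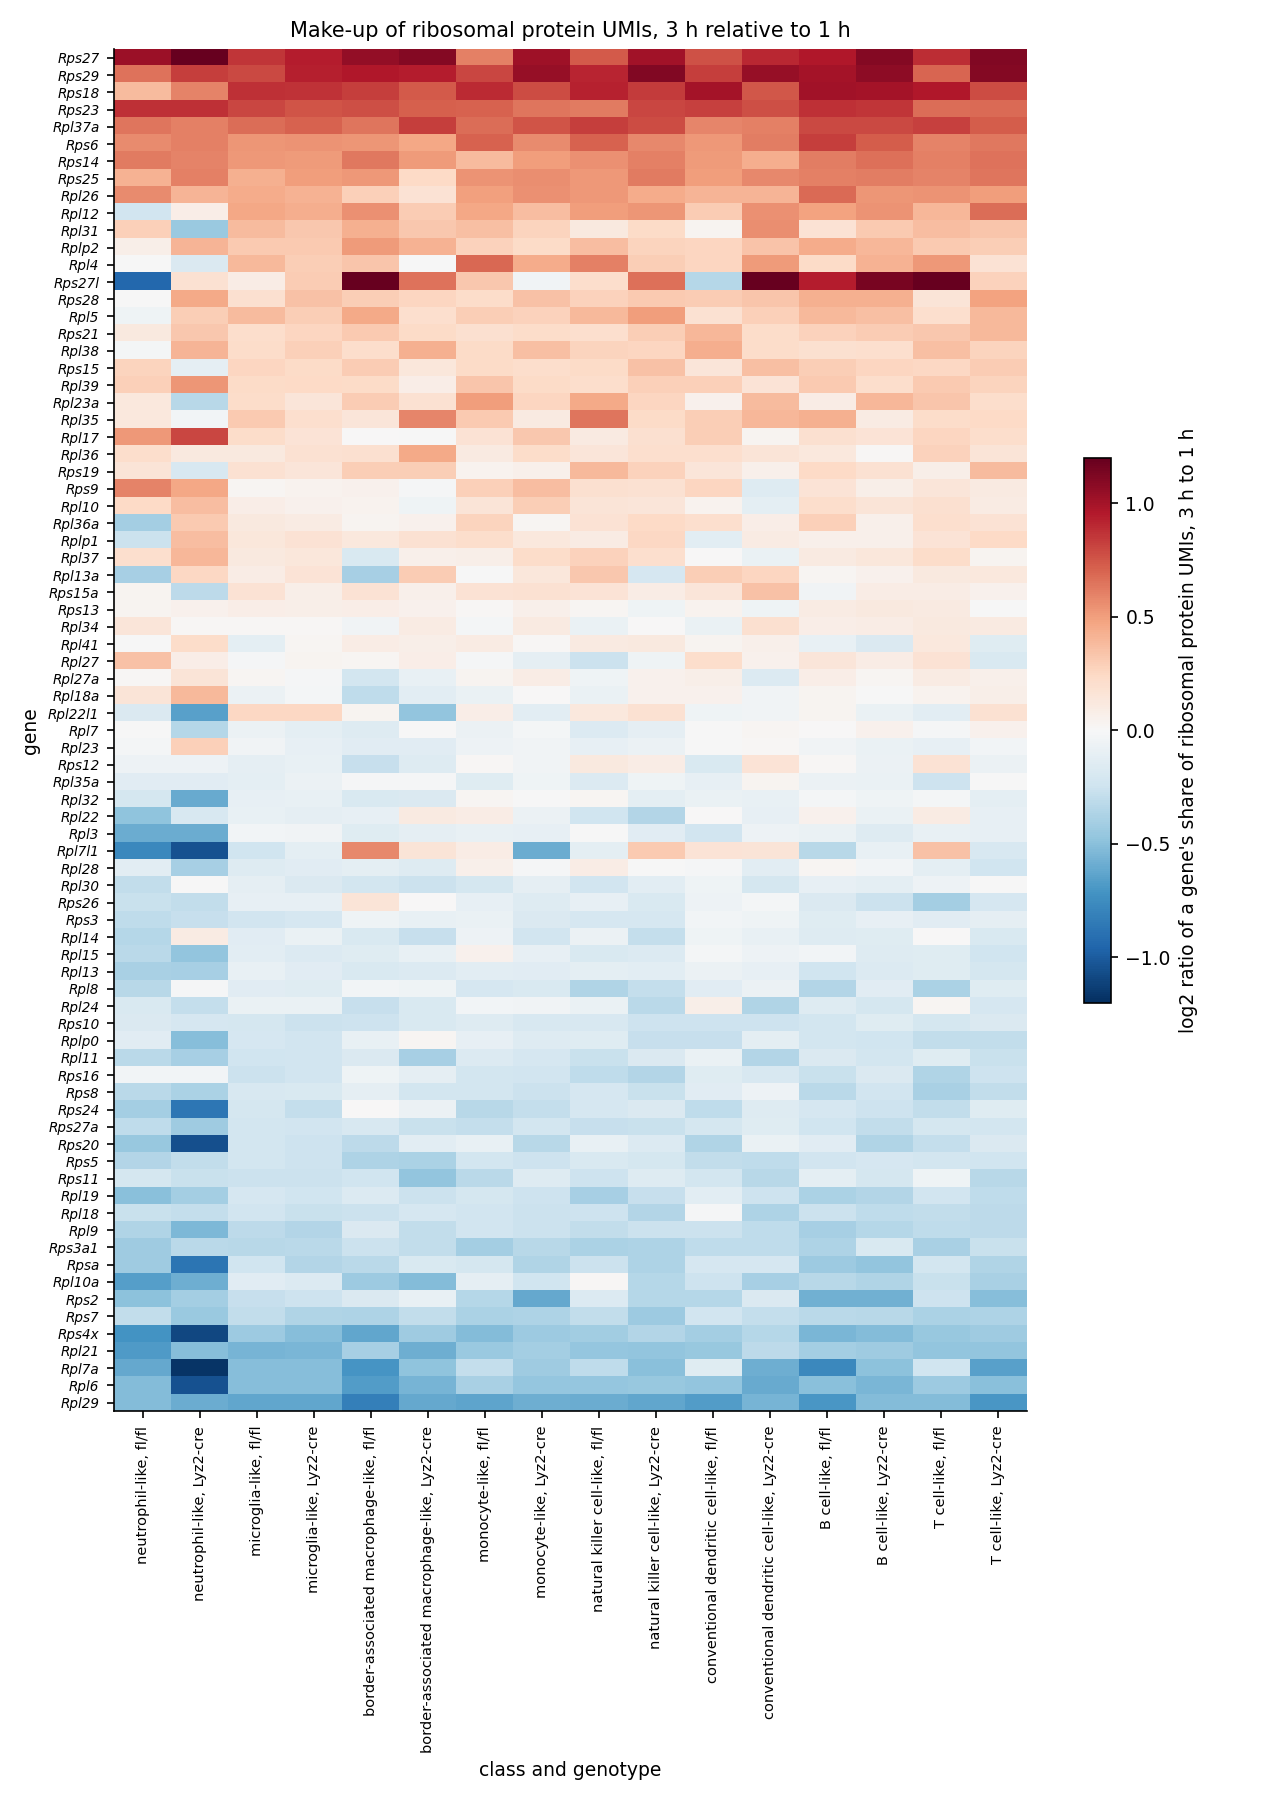
Log2 ratio, 3 h to 1 h, of each gene's share of all ribosomal protein UMIs (color; red higher at 3 h, blue lower) for 79 members (rows, ordered by median) in 8 classes of 2 genotypes (columns). The rows at the top (Rps27, median 0.98) and bottom (Rpl29, median -0.62) have 1 color across all 16 columns.

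The members were also read by function. The P-stalk proteins Rplp0, Rplp1 and Rplp2, which recruit elongation factors, all rose at 1 h and at 3 h in microglia-like cells. Their medians were 0.39 at 1 h and 0.67 at 3 h. Of all 81 members tested, 58 rose at 1 h and 75 at 3 h, with medians of 0.46 and 0.53. Rplp1 had the highest CPM of all members in these cells, at 1980.1 and 2039 CPM in naive brain, 2402 and 2480.4 CPM at 1 h, then 3093 and 2960.4 CPM at 3 h. CPM is taken per transcript here, since the method counts 1 end of each transcript. Rps29 and Rps24 came next by mean CPM over the 6 libraries, at 1877 and 1714 CPM. The lowest were Rpl7l1 at 87.3 CPM, Rpl39l at 2.44 CPM and Rpl3l at 0.0296 CPM. Of the 4 listed proteins that bind Mdm2, Rpl11 and Rpl23 rose at 1 h by 0.56 and 0.498, and Rpl5 (0.12, adjusted p = 0.392) and Rps27l (-0.24, adjusted p = 0.0649) had no call. At 3 h Rpl5, Rpl11 and Rpl23 rose by 0.59, 0.46 and 0.56, and Rps27l had no call.

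Rps6, the classical substrate of the S6 kinases below mTOR, stood at 459 and 457 CPM in naive microglia-like cells, 431 and 432 CPM at 1 h, then 732 and 663 CPM at 3 h. It had no call at 1 h (0.02, adjusted p = 0.891) and rose at 3 h (0.69, SE 0.09, adjusted p = 0.000341). Rps27a, made as a fusion with ubiquitin, rose by 0.59 at 1 h and 0.50 at 3 h. All 9 listed genes mutated in Diamond-Blackfan anemia, such as Rps19, Rps24 and Rpl35a, rose at 3 h, and 7 of 9 at 1 h. These counts lie near those of the whole set, 75 of 81 at 3 h and 58 of 81 at 1 h. Rpl5 is also on the list of proteins that bind Mdm2.

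Monocyte-like cells had calls at 3 h and none at 1 h. At 1 h 0 of 81 members were called by edgeR and 0 by DESeq2 (8 by edgeR without the fl/fl 1 h library), 27 had an unadjusted p under 0.05 (edgeR), and 0.274% of all genes were called. Of all 9501 genes tested, 1435 had an unadjusted p under 0.05 (edgeR) in that 1 h comparison. At 3 h against naive 56 members were higher and 0 lower (median 0.43, against -0.02 over all genes), where 10.3% of all genes were called higher and 9.73% lower. Against 1 h 38 were higher and 0 lower (median 0.37), with 8.54% and 6.85% of all genes. Both comparisons use the 3 h libraries.

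The largest rises from naive to 3 h in monocyte-like cells were those of Rps18, Rps27 and Rpl35. Rps18 stood at 1764 and 1917 CPM in naive brain, 1324 and 1448 CPM at 1 h, then 2753 and 2961 CPM at 3 h (0.86, SE 0.11, adjusted p = 0.000645). Rps27 stood at 1362 and 2182 CPM in naive brain, 1479 and 1199.7 CPM at 1 h, then 2519.9 and 2902 CPM at 3 h (0.85, SE 0.19, adjusted p = 0.0146), and this call was lost without the fl/fl naive library and with library totals as the only scaling. Rpl35 went from 746 and 917 CPM to 1222 and 1306 CPM (0.84, adjusted p = 0.00179). In all 3 genes both 3 h libraries lay above the other 4. Against 1 h the largest were Rps29 (1.30, adjusted p = 0.00067), Rps18 (1.22) and Rps27 (1.18).

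The monocyte-like count rested on the scaling and on single libraries. The 56 calls became 29 with DESeq2, 15 higher and 1 lower with library totals alone, and 10 without fl/fl naive, 9 without fl/fl 3 h, 18 without Lyz2-cre naive and 9 without Lyz2-cre 3 h. Against 1 h it was 13 without fl/fl 3 h and 12 without Lyz2-cre 3 h. With library totals alone the median of all genes moved to -0.25 at 3 h against naive, and the members' median to 0.21, a gap of 0.45 as before, while the share of rises among all calls went from 51.5% to 27.1%. Against 1 h library totals gave 24 higher and 1 lower, and the share of rises among all calls went from 55.5% to 32.4%.

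The monocyte-like class differed in make-up over the same times. Cluster 20, whose 10 leading genes include Fn1, F13a1, Vcan and Ccr2, held 37.4% of monocyte-like cells in naive fl/fl brain, 43.3% at 1 h and 72.8% at 3 h, and 27.3%, 52.2% and 77.2% in Lyz2-cre. The rest were in cluster 19, led by Ace and Ear2. In cluster 20 the member share went from 16.9% to 17.1% and 18.6% in fl/fl and from 18.6% to 16.6% and 20.05% in Lyz2-cre. In cluster 20 alone 22 members were higher at 3 h than in naive brain and 0 lower, where the share of all genes is not given here. In cluster 19 the share went from 14.5% to 16.3% and 19.1% in fl/fl and from 16.1% to 16.9% and 19.1% in Lyz2-cre. The 10 microglia markers, none of them at 0, summed to 2002, 1663 and 436 CPM (fl/fl) and 1456, 1637 and 399 CPM (Lyz2-cre) at naive, 1 h and 3 h in monocyte-like cells, and the 12 neutrophil markers to 231, 288 and 1187 CPM and 524, 1146 and 1258 CPM. The 10 border-associated macrophage markers, with Lyve1, Folr2 and Cd209f at 0, summed to 513, 651 and 1229 CPM (fl/fl) and 453, 892 and 1406 CPM (Lyz2-cre). The 5 myeloid progenitor markers summed to 528, 114 and 100.04 CPM and to 168, 1421 and 76.0 CPM, so that the Lyz2-cre 1 h library was the highest. Of 8 genes that can respond to cell handling 1 rose and 1 fell at 3 h, near the 10.3% and 9.73% of all genes. Their part in the result was not tested.

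In neutrophil-like cells, the class of lowest share, 26 members rose by 3 h. The share was 2.95%, 3.42% and 3.96% in fl/fl versus 3.04%, 2.76% and 4.15% in Lyz2-cre. At 1 h 0 of 81 members were called by edgeR and by DESeq2, and 0.848% of all genes were called. An unadjusted p under 0.05 (edgeR) was found for 7 members and for 930 of all 7780 genes. At 3 h 26 were higher than in naive brain and 0 lower (median 0.52, against -0.04 over all genes), where 17.2% of all genes were called higher and 10.5% lower. Against 1 h 21 were higher and 0 lower (median 0.38), with 14.5% and 9.76% of all genes. Without the fl/fl naive library 0 members were called at 3 h against naive, and without the Lyz2-cre naive library 5. Against 1 h the count was 3 without the Lyz2-cre 1 h library, and 12 without either naive library.

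The largest rises from naive to 3 h in neutrophil-like cells were those of Rps27, Rpl17 and Rps23. Rps27 stood at 549 and 702 CPM in naive brain, 599 and 397 CPM at 1 h, then 1414 and 1831 CPM at 3 h (1.59, SE 0.26, adjusted p = 0.00139). Rpl17, which sits at the exit of the peptide tunnel, went from 620 and 569 CPM to 1140 and 1229 CPM between naive and 3 h (1.22, adjusted p = 0.00295), and Rps23 from 301 and 322 CPM to 586 and 632 CPM (1.19, adjusted p = 0.00278). These 3 calls were lost without the fl/fl naive library. In all 3 genes both 3 h libraries lay above every other library. Against 1 h the largest were Rps27 (1.79), Rps23 (1.36) and Rps29 (1.23), the last lost without the Lyz2-cre 1 h library.

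Neutrophil-like cells kept their own order of levels. Rps9 was the highest member by mean level at 2203 CPM, then Rps27a at 1853 CPM and Rpl9 at 982 CPM, and the 10 highest members held 32.6% of member UMIs, against 21.7% to 23.3% in the other 7 classes. Rps9 stood at 1771 and 1754 CPM in naive brain and at 3349 and 2987 CPM at 3 h, and rose by 1.07 (adjusted p = 0.00972); it was picked after its values were seen.

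The neutrophil-like class differed in make-up as well. Cluster 10, whose leading genes include the granule genes Ltf, Camp and Ngp, held 40%, 13.1% and 2.69% of neutrophil-like cells in fl/fl versus 52.4%, 40.7% and 2.87% in Lyz2-cre at naive, 1 h and 3 h. In cluster 12, whose leading genes include Cxcr2 and Hdc, the member share was 3.62%, 3.45% and 3.94% in fl/fl versus 3.46%, 2.74% and 4.18% in Lyz2-cre. In cluster 12 alone 20 members were higher at 3 h than in naive brain, where the share of all genes is not given here. Summed neutrophil markers took 315705 CPM in naive and 195415 CPM in 3 h fl/fl cells, and 395403 and 173612 CPM in Lyz2-cre. The 10 microglia markers, none at 0, took 2472, 2939 and 348 CPM in fl/fl versus 801, 1566 and 539 CPM in Lyz2-cre. The 10 monocyte markers took 3654, 2732 and 1258 CPM in fl/fl versus 4768, 5111 and 1387 CPM in Lyz2-cre. Of 8 genes that can respond to cell handling 5 rose at 3 h and 0 fell (median 1.74), namely Hspa1a (6.87), Hspa1b (8.07), Hspa8 (2.503), Hsp90aa1 (2.72) and Dnajb1 (0.98). Of 10 integrated stress response genes tested 5 rose and 0 fell (median 1.28). Beside both lists, 17.2% of all genes were called higher and 10.5% lower at 3 h against naive. The part of these markers and genes in the result was not tested. With library totals alone the median of all genes moved to -0.27 at 3 h against naive, 8 members were called, all higher, and the share of rises among all calls went from 62.0% to 47.7%. Against 1 h 11 were called, all higher.

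Across the 3 tested classes 26 members rose at 3 h against naive in all of them, among them Rps27, Rps29, Rps18, Rps23, Rps6, Rps9, Rpl37a and Rplp1. A further 19 passed the test in microglia-like cells alone, 0 in monocyte-like or neutrophil-like cells alone, and 7 in none. These 7 were the 5 paralogs, Rpl29 and Rpl7a. Of all genes tested, the share called higher at 3 h was largest for the microglia-like class (24.4%). It was 17.2% for the neutrophil-like class and 10.3% for the monocyte-like one. How many of all genes were shared between classes in this way is not given here. The overlap of members therefore cannot be told apart from one over all genes. The difference between classes was not tested, and the classes differ in cells per library.

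No member was called between genotypes in the 3 classes tested. In microglia-like cells 0 of 81 members differed by edgeR and 0 by DESeq2, and 0.422% of all genes were called. An unadjusted p under 0.05 (edgeR) was found for 3 members and for 1332 of all 12808 genes. The members' median log2 fold change, Lyz2-cre against fl/fl, was -0.06, with 19 above 0 (39 with library totals alone, median -0.00269), and single members ranged from -0.17 (Rpl13a) to 0.28 (Rpl39l). With either 3 h library left out 1 member was called. In monocyte-like cells the median was 0.04, and 0% of all genes were called by edgeR. There 4 members and 320 of all 9501 genes had an unadjusted p under 0.05 (edgeR). In neutrophil-like cells the median was 0.09, and 0.0257% of all genes were called. There 0 members and 419 of all 7780 genes had an unadjusted p under 0.05 (edgeR). With library totals alone the neutrophil-like median turned to -0.05. DESeq2 likewise called 0 members in both of these classes.

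The microglia-like cells of each time fell largely into different clusters. Cluster 8 held 59.7% and 74.9% of them in naive fl/fl and Lyz2-cre brain, and at most 3.46% later. Of 12 clusters, 3 held at least 20 cells in every library, and these took 2.14% and 3.00% of naive cells. In cluster 0, led by P2ry12 and Sparc, the member share was 5.97%, 6.98% and 8.84% in fl/fl versus 5.66%, 7.10% and 9.04% in Lyz2-cre. In cluster 18, led by Rcan1 and Sparc, it was 5.69%, 6.88% and 7.34% in fl/fl versus 5.49%, 7.73% and 6.70% in Lyz2-cre. In cluster 5, led by Slc1a3 and Tmem119, it was 7.21%, 5.84% and 6.84% in fl/fl, with 20 naive cells, and 5.16%, 6.05% and 6.998% in Lyz2-cre. At 3 h cluster 3, led by Sox4 and Hspa1a, had shares of 11.4% and 10.5%, and cluster 13, led by Gdf15 and Rcan1, 7.34% and 6.01%.

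Lymphocyte markers were also summed in the microglia-like cells. The 10 T cell markers together took 4.11, 2.81 and 7.66 CPM in fl/fl versus 2.01, 1.70 and 4.97 CPM in Lyz2-cre at naive, 1 h and 3 h, so that the 3 h library was the highest of each genotype. The 9 natural killer cell markers took 0.693 to 1.98 CPM over the 6 libraries, and no marker of either list was at 0. The 9 B cell markers took 371, 288 and 168 CPM in fl/fl versus 399, 338 and 216 CPM in Lyz2-cre. Their part in the members' rise was not tested.

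Among other genes with the 5′ TOP motif, rises outnumbered falls at both times. Of 19 other TOP genes tested in microglia-like cells 11 rose and 2 fell at 1 h (median 0.37), and 13 rose and 0 fell at 3 h (median 0.25). Beside them 14.0% of all genes were called higher and 12.6% lower at 1 h, and 24.4% and 23.1% at 3 h. Eef1g of the elongation factor complex rose at 3 h by 0.78 and Npm1, a nucleolar chaperone, by 0.75, with no call at 1 h.

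Factors that build ribosomes had most of their rises at 3 h. Of 48 ribosome biogenesis genes 7 rose and 4 fell at 1 h (median 0.06), and 34 rose and 2 fell at 3 h (median 0.47). The 1 h counts lie near the 14.0% and 12.6% of all genes called higher and lower, and at 3 h these shares were 24.4% and 23.1%. Gnl3, a nucleolar GTPase, went from 64.8 and 69.7 CPM to 103 and 81.8 CPM at 1 h, then 273 and 192 CPM at 3 h (1.85, SE 0.15, adjusted p = 0.000258). Rrs1 rose by 1.32 and Utp4, a part of the small-subunit processome, by 1.27. Of 30 initiation and elongation factors 8 rose and 2 fell at 1 h, and 16 rose and 2 fell at 3 h, led by Eif1a (2.11), the termination factor Etf1 (1.39) and Eif2s2 (0.86).

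Genes that regulate translation were listed as well. Among mTOR and Myc genes 2 of 20 tested rose and 2 fell at 1 h, near the share of all genes, and 10 rose and 4 fell at 3 h, beside 24.4% and 23.1% of all genes. Ddit4, an inhibitor of mTOR complex 1, went from 9.44 and 21.7 CPM to 211 and 159 CPM at 1 h, then 177 and 222 CPM at 3 h (3.78, SE 0.51, adjusted p = 0.0209). Sesn2, another inhibitor, rose at 3 h by 1.44 and Myc, which drives ribosome production, by 1.28 (adjusted p = 1.44e-05), and neither had a call at 1 h. Of 12 integrated stress response genes 1 rose and 3 fell at 1 h, and 6 rose and 1 fell at 3 h, led by Chac1 (3.36), Cebpb (2.57) and Trib3 (1.73). Chac1 and Trib3 stayed under 4 CPM in all libraries. Beside this list and the next, 14.0% and 12.6% of all genes were called higher and lower at 1 h, and 24.4% and 23.1% at 3 h. Genes that can respond to cell handling differed too. Of 8 such genes 3 rose (Hspa1a, Hspa1b and Hspa8) and 4 fell (Fos, Jun, Egr1 and Dnajb1) at 1 h, and 4 rose and 3 fell at 3 h. Their part in the members' rise was not tested.

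The mitochondrial ribosome, with 78 genes in the series, had more falls than rises at 3 h. At 1 h 12 of 78 rose and 4 fell in microglia-like cells (median 0.03), and at 3 h 8 rose and 26 fell (median -0.11), where 14.0% and 12.6% of all genes were called higher and lower at 1 h and 24.4% and 23.1% at 3 h. The largest changes called at 3 h were those of Mrpl14 (44.7 and 43.9 CPM in naive brain, 24.5 and 30.7 CPM at 3 h, -0.60, SE 0.10, adjusted p = 0.000904), Mrpl42 (-0.58) and Mrpl2 (-0.51). In neutrophil-like cells at 3 h 3 of 66 tested rose and 13 fell (median -0.81), beside 17.2% and 10.5% of all genes. In monocyte-like cells 3 of 77 rose and 0 fell (median 0.20), beside 10.3% and 9.73% of all genes. The difference between cytosolic and mitochondrial genes was not tested.

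**Figure D5:**
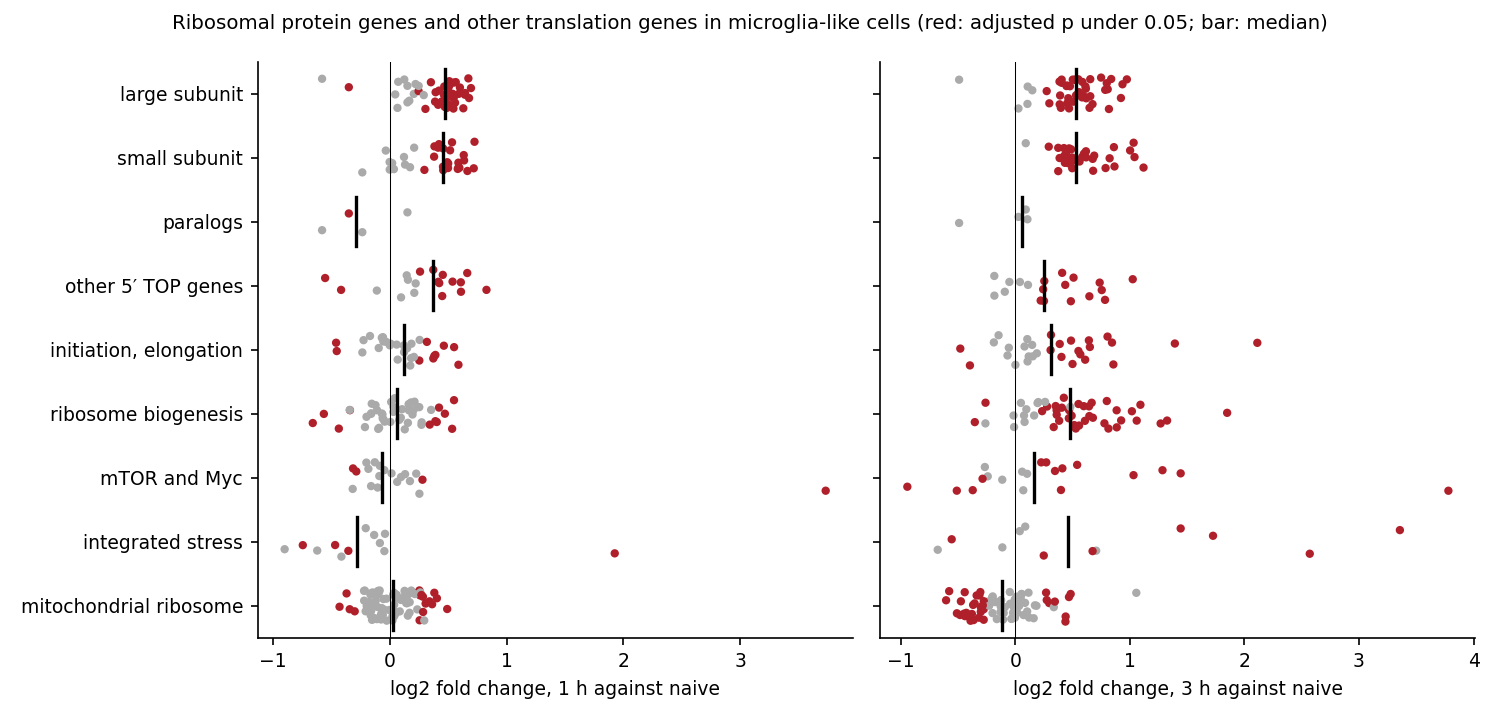
Log2 fold change (x axis) in microglia-like cells at 1 h (left) and 3 h (right) against naive of the members by subunit and of 7 other sets (y axis; paralogs are also members); each point is a gene, red for an adjusted p under 0.05, and black bars are medians. At 3 h the medians are 0.53 for both subunits, 0.47 for ribosome biogenesis and -0.11 for the mitochondrial ribosome.

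Among the genes most like the members' summed level over the 6 microglia-like libraries were Gdap10, Rgs1, Elp5 and Cisd2, with Pearson r of 0.994, 0.992, 0.99 and 0.988 among 8043 other genes compared on log2(CPM + 1). Rgs1, a regulator of G-protein signals, stood at 289, 497 and 770 CPM in fl/fl versus 267, 521 and 678 CPM in Lyz2-cre. Most like Rpl39l, the only tested member with a log2 fold change below 0 at 3 h, were Zfp513, Kdm5b, Gm20045, Slc25a1 and Fam160b1, with r from 0.975 to 0.986 over the same 6 libraries. With 6 libraries and so many genes such values are a description only.

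Of the 82 members 60 have named pseudogenes in the annotation, 298 in all, which are near-identical copies. How reads shared with such copies were assigned is not given in the sources used here, so the absolute levels of these members are uncertain.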

How the data were processed

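Living CD45-positive brain cells of 6 pooled libraries were measured with 10x v3 chemistry. The authors used Cell Ranger 3.0.2 and build mm10, per the submitters' processing notes, and deposited raw UMI counts per gene and barcode with no normalization. The deposited lists of barcodes and features hold no score or other measurement. Each library had 35479437 to 48478866 UMIs.

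Of 51005 barcodes, the 50634 with 300 genes or more and a mitochondrial share of UMIs up to 10% were kept. Scrublet's automatic threshold marked only 607 doublets and was not used. In its place the barcodes of highest Scrublet score were removed, 0.8% for each 1000 barcodes of a library, 3531 in all. Clustering (scanpy 1.11.5) used 2000 variable genes without the members, 30 principal components, 15 neighbours and Leiden resolution 1, and gave 22 clusters. A cluster took the class of best marker score where 3 or more markers were detected, unless markers of a different class were more numerous in its 10 leading genes. Clusters named border-associated macrophage or myeloid progenitor were clustered again, a choice made after the clusters were seen, and parts of other names stayed unnamed. With the members among the variable genes 99.54% of cells kept their class.

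The UMI counts, added up over the cells of a class in each library, were tested with edgeR 4.0.16 (quasi-likelihood, TMM factors, genotype and time as additive terms, 2 residual degrees of freedom). P-values were adjusted by Benjamini and Hochberg over all genes tested (12808, 9501 and 7780 in microglia-like, monocyte-like and neutrophil-like cells), with a threshold of 0.05. Since each group is 1 library, a gene's own spread comes from how far the genotypes depart from a shared time course. The fit also borrows spread from other genes. The median prior degrees of freedom were 7.59, 7.99 and 8.71 in microglia-like, monocyte-like and neutrophil-like cells. These exceed the 2 residual degrees, so standard errors and adjusted p rest largely on the borrowed spread. Standard errors are the log2 fold change divided by the root of F. The other classes have values only. The code was tested on simulated data for microglia-like cells at 3 h against naive, where 198 of 200 genes changed by 1 on the log2 scale were recovered, with 7 false calls among 12705 genes. Alternatives were DESeq2 1.42.0, library totals alone, factors from non-members, no low-count filter, each library left out, a stricter cell filter (800 genes, 5% mitochondrial), doublets kept, members in the variable genes and, added after seeing the data, only the largest cluster of a class. Shares carry exact Clopper-Pearson 95% intervals, which cover counting error only.

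The members and gene lists were chosen with earlier results of these data known. Named were the 5 largest called rises and falls per contrast in microglia-like cells and the 3 largest in the other classes, the listed paralogs and functional groups, the 3 highest and 3 lowest members by level, the 3 largest called changes of each other list and the 5 genes most like the members' sum and Rpl39l. Other members named beside them were picked after their values were seen. Some genes that this rule names are not reported here and are not drawn in the plots that label genes.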

Additional observations from a re-analysis of the deposited data

Results flagged for a closer look

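The share of UMIs from cytosolic ribosomal protein genes moved in opposite directions in the genotypes in 6 comparisons, each of 1 library against 1, and none of these differences was tested. In border-associated macrophage-like cells the share changed by 2.90 percentage points in fl/fl and -0.945 in Lyz2-cre from naive to 1 h, a difference (Lyz2-cre minus fl/fl) of -3.84. From 1 h to 3 h it changed by -1.78 and 2.17 there, a difference of 3.95. In conventional dendritic cell-like cells, with 22 to 54 cells per library, it changed by 0.00236 and -3.22 from naive to 1 h, a difference of -3.22, and by 2.81 and -1.72 from naive to 3 h, a difference of -4.52. From naive to 1 h it changed by 1.04 and -0.477 in monocyte-like cells, a difference of -1.51. In neutrophil-like cells it changed by 0.474 and -0.281, a difference of -0.754.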

How the results depend on the processing

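No paired analysis was possible because each combination of genotype and time is 1 pooled library with no replicate number, and the genotype term of the fit already compares times within a genotype. Leaving out each library in turn gave 0 to 63 called members in microglia-like cells at 1 h against naive, 26 to 76 at 3 h against naive, 23 to 36 at 3 h against 1 h and 0 to 1 between genotypes. In monocyte-like cells the ranges were 0 to 8, 9 to 78, 12 to 43 and 0 to 0, and in neutrophil-like cells 0 to 0, 0 to 36, 3 to 20 and 0 to 0. With a library left out its group has none, so the time or genotype effect rests on the other genotype or times. The share of all genes called is not given for these fits. In all 3 classes, a loss of calls among members cannot be told apart from one over all genes. In monocyte-like cells at 1 h the count was 4 with no low-count filter and 2 with members in the variable genes. At 3 h against naive it was 29 with DESeq2, 16 with library totals and 22 in the largest cluster, and against 1 h 25 with library totals. In neutrophil-like cells library totals gave 8 and 11 at 3 h against naive and against 1 h, and doublets kept gave 16 and 13. The cause was not tested. In monocyte-like cells at 1 h, 50% of all calls were rises, 63.9% with factors from non-members and 41.5% with library totals.

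The microglia-like gain in share from naive to 3 h in fl/fl (2.499 percentage points) was 2.55 with the stricter filter, 2.54 with doublets kept, 2.55 of non-mitochondrial UMIs and 2.12 as a median over cells. In Lyz2-cre (2.16) it was 2.19, 2.18, 2.19 and 1.75, and 2.14 with members in the variable genes. From naive to 1 h it was 1.31, 1.31, 1.32 (members in the variable genes) and 1.03 (median) in fl/fl, where the value was 1.29. In Lyz2-cre it was 1.75 of non-mitochondrial UMIs and 1.43 as a median, where the value was 1.73. Of the 33 calls of named members 15 were lost under at least 1 alternative, all 15 with a library left out and 1 of them also with library totals, and none changed direction.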
